A study of Mus musculus with 8 samples.

Results

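The fatty acid elongases Elovl1 to Elovl7 were followed in the livers of mice with and without liver X receptors (LXRs). The family was taken by gene symbol, as the rows for Elovl1, Elovl2, Elovl3, Elovl4, Elovl5, Elovl6 and Elovl7, and the rule used no measured value. These are 7 of the 25010 genes in the deposited table. Of the 7, 6 had a mean of at least 10 normalized counts over the livers and entered the test, and Elovl4 did not. RNA-Seq was performed on the left lobe of the liver of 2 wild-type (WT) mice and 2 LXRDKO mice, with 1 library per mouse. All mice had the C57BL/6 strain background, were 8 weeks old at collection after a fast of 4 to 6 h, and none of these 4 had a labelled drug treatment. LXRDKO mice are whole-body double knockouts of Nr1h3 (LXRα) and Nr1h2 (LXRβ), so every cell type of the liver and the other organs carry the deletions. A normalized count is the number of reads on a gene divided by 1 size factor for the library, and normalized counts per kb are this value divided by the length of the exons of the gene.

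Elongases are membrane enzymes of the endoplasmic reticulum. Each joins carbons from malonyl-CoA to a fatty acyl-CoA, the first and slowest step of the elongation cycle, and a ketoacyl reductase, a dehydratase and an enoyl reductase then complete the round. The members differ in the chains they accept. ELOVL6 lengthens palmitate and other long saturated and monounsaturated chains, ELOVL5 and ELOVL2 lengthen polyunsaturated chains on the way to arachidonic and docosahexaenoic acid, ELOVL1, ELOVL3 and ELOVL7 make saturated and monounsaturated very long chains, and ELOVL4 makes the longest chains, of skin, retina and brain. In liver, LXRs act with retinoid X receptors as sensors of oxysterols and switch on Srebf1, whose product SREBP-1c in turn activates genes of fatty acid synthesis.

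The promoters of Elovl5, Elovl2, Elovl6 and Elovl1 are shown because they include the elongase with the largest difference between genotypes, Elovl5, and the one with the smallest difference, Elovl1. Each line gives 200 bases upstream of the gene on the gene's own strand, 5′ to 3′, from the RefSeq annotation of GRCm38.p6, with matches to the searched motifs in capitals.
Elovl5, chr9:77917164-77917363, plus strand: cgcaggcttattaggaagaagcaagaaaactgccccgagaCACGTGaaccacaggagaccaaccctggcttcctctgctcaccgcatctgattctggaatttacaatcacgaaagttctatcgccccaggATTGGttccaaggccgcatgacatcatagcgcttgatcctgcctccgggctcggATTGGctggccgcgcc
Elovl2, chr13:41220406-41220605, minus strand: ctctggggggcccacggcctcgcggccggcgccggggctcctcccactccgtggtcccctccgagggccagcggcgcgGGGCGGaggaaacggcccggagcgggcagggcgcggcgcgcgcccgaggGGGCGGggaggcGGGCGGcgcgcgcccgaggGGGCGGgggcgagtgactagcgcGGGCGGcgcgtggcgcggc
Elovl6, chr3:129532155-129532354, plus strand: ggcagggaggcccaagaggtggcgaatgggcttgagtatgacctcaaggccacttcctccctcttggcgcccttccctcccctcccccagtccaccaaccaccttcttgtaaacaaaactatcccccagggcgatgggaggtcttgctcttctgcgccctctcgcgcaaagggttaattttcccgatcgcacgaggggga
Elovl1, chr4:118427893-118428092, plus strand: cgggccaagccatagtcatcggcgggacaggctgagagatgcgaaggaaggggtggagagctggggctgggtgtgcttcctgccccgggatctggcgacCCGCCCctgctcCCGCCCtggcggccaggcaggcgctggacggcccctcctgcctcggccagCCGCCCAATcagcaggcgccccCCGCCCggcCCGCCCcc
The capitals in Elovl5 mark an E-box, CACGTG, and further downstream the letters CCAAT read on the other strand at 2 places. The capitals in Elovl2 mark 5 GC boxes, GGGCGG. The Elovl1 stretch holds 5 GC boxes on the other strand and 1 CCAAT, which shares bases with a GC box. The Elovl6 stretch holds none of these letters.

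RefSeq gave 8 promoters, reaching from 250 bases before to 50 bases after the start site, for 6 of the 7 elongases, all but Elovl3. They were searched on both strands. A direct repeat spaced by 4 bases (DR4), the form of element that LXRs bind, was searched as a pair of AGGTCA with any bases between them and in a degenerate form that also takes in every match of the strict one. Neither form lay in an elongase promoter, and 0.0152% and 0.231% of the 32851 promoters in the table hold them. A sterol regulatory element, TCACNCCAC, lay in none of the 8 elongase promoters either, against 1.24% of all promoters. The E-box lay in the promoters of Elovl5 and Elovl4, and 7.15% of all promoters hold one. CCAAT lay in those of Elovl1, Elovl4 and Elovl5, against 37.4% of all promoters. GC boxes lay in 5 promoters of 4 genes, Elovl1, Elovl2, Elovl4 and Elovl7, against 35.7%.

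A wider search took 10 kb on either side of the annotated start of each gene on GRCm38, over 15548 such windows of tested genes. The strict DR4 lay in none of the elongase windows and in 1.07% of all windows. Elovl5 was the only elongase with the degenerate form, which 20.4% of all windows hold. It lies in an intron of Elovl5, 2632 bases after the start, at chr9:77919996-77920011 on the minus strand, and is printed on that strand with 20 bases on either side.
Elovl5 intron: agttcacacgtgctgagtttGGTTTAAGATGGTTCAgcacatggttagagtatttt
The sterol regulatory element TCACNCCAC lay in the windows of Elovl1, Elovl3, Elovl6 and Elovl7 and in 47.3% of all windows. Measured from the start, with negative values before it, the matches lie at 4410 bases in Elovl1, 663 in Elovl7, and 880 and -8011 in Elovl3. Only the Elovl6 match is printed, and it is not the nearest to a start. It lies in an intron, 4082 bases after the start, at chr3:129536437-129536445 on the minus strand.
Elovl6 intron: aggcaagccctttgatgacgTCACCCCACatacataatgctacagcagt
These matches describe letters in the reference genome. Binding was not measured here, and a share such as 47.3% is that of all tested genes, whatever their change.

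The libraries held between 55772659 and 72842744 reads on genes. Nr1h3 and Nr1h2 were lower in both LXRDKO livers, with log2 fold changes of -1.65 and -1.66 (limma adjusted P value of 0.0147 for each), and reads remained on both genes. The hepatocyte markers, led by Alb, were high in every liver, and their summed normalized counts were 7725665 and 8452626 in WT and 7998580 and 7390157 in LXRDKO. Of the 10 listed, only Tat was called (higher, by DESeq2, which called 1.56% of all genes it tested higher). Ddx3y, a gene of the Y chromosome, lay between 4242 and 4916 normalized counts in the 4 livers.

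ELOVL5 and ELOVL2 act on polyunsaturated chains, and their transcripts were the most abundant of the family per kb in WT liver. Elovl5 (ENSMUSG00000032349, chr9:77917364-77984519 on the plus strand of GRCm38), the enzyme that follows the first desaturation of linoleic and linolenic acid, gave WT values of 24423 and 36037 normalized counts against 10839 and 12551 in LXRDKO. Both LXRDKO livers were well below both WT livers, the highest LXRDKO value being 1.95 times below the lowest WT value. The mean of 30230 ± 8213 in WT (SD, n = 2) stood against 11695 ± 1211 in LXRDKO (SD, n = 2), which is 2.58-fold lower and leaves 38.7% of the WT level. The log2 fold change was -1.35 (SE 0.20, 95% confidence interval -1.84 to -0.85). The limma test gave an adjusted P value of 0.0893, above the threshold of 0.05, and edgeR gave 0.0977. DESeq2 on the recovered reads, the tool the authors used, called Elovl5 down-regulated with a log2 fold change of -1.37 and an adjusted P value of 8.05e-09. In bulk tissue, fewer cells of a type and less RNA per cell cannot be told apart. The call by limma also depended on which livers entered. This shift is not particular to Elovl5: over all genes, limma called more without either WT liver and fewer without either LXRDKO liver. Each such fit leaves a single liver in 1 genotype. Without WT replicate 1 or WT replicate 2 the adjusted P value was 0.00492 or 0.0254, and without LXRDKO replicate 1 or 2 it was 0.301 or 0.261, with log2 fold changes between -1.63 and -1.07 throughout.

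Elovl2 (ENSMUSG00000021364, chr13:41182381-41220405 on the minus strand), which acts later in the polyunsaturated pathway and makes the precursors of docosahexaenoic acid, gave WT values of 44096 and 62406 normalized counts against 31748 and 29074 in LXRDKO. The groups did not overlap, and the WT livers differed more from each other than the LXRDKO livers did. The mean was 53251 ± 12947 in WT (SD, n = 2) and 30411 ± 1891 in LXRDKO (SD, n = 2), 1.75-fold lower, with 57.1% of the WT level left. The log2 fold change was -0.79 (SE 0.19, 95% confidence interval -1.25 to -0.33). The adjusted P value was 0.189 by limma, 0.195 by edgeR and 0.00147 by DESeq2, so that DESeq2 alone called Elovl2 down-regulated. Without WT replicate 1, limma gave 0.0196, and without each of the other livers it gave values from 0.146 to 0.529. The ratio of Elovl2 to Elovl5 per kb was 1.57 ± 0.046 in WT and 2.33 ± 0.385 in LXRDKO (SD, n = 2 each), higher in both LXRDKO livers.

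Elovl6 (ENSMUSG00000041220, chr3:129532355-129638495 on the plus strand), which carries palmitate to stearate after fatty acid synthase, gave WT values of 6735 and 10626 normalized counts against 4974 and 6493 in LXRDKO. The groups were separated narrowly, the lowest WT value being 1.04 times the highest LXRDKO value. The mean was 8681 ± 2751 in WT (SD, n = 2) and 5733 ± 1074 in LXRDKO (SD, n = 2), 1.51-fold lower, with a log2 fold change of -0.57 (SE 0.24, 95% confidence interval -1.17 to 0.02). No tool called it, with adjusted P values of 0.394 by limma, 0.39 by edgeR and 0.183 by DESeq2. Leaving out 1 liver moved its log2 fold change between -0.90 (without WT replicate 1) and -0.25 (without WT replicate 2). The interval still takes in 0 at its upper end, and the WT livers differed by 0.66 on the log2 scale, more than the genotypes did.

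Elovl1 (ENSMUSG00000006390, chr4:118428093-118432953 on the plus strand), which makes very long saturated chains used in sphingolipids, had the smallest difference between genotypes of the 6 tested. It gave WT values of 2540 and 2643 normalized counts against 2587 and 2776 in LXRDKO, and the groups overlapped. The log2 fold change was 0.05 (SE 0.092, 95% confidence interval -0.18 to 0.28, limma adjusted P value of 0.882). The interval leaves out changes of the size seen for Elovl5 and Elovl2.

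Elovl3 (ENSMUSG00000038754, chr19:46131897-46135694 on the plus strand), a very long chain elongase with marked daily and sex-linked variation in mouse liver and high expression in brown fat and skin glands, gave WT values of 7370 and 3507 normalized counts against 7239 and 4544 in LXRDKO. It varied more within a genotype than between them. In each genotype replicate 1 was the higher liver, with log2 differences of -1.07 for the WT pair and -0.67 for the LXRDKO pair (replicate 2 against replicate 1). The first is larger than that of 94.8% of the genes tested and the second larger than that of 89.6%. The log2 fold change between genotypes was 0.17 (SE 0.38, 95% confidence interval -0.78 to 1.13, limma adjusted P value of 0.901). Leaving out WT replicate 2 or LXRDKO replicate 1 turned it to -0.36 or -0.16, and leaving out WT replicate 1 or LXRDKO replicate 2 gave 0.71 or 0.51, so no direction is given.

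Genes that vary with sex or with the time of day were set beside Elovl3 from fixed lists. Replicate 1 was the higher liver in both genotypes, as for Elovl3, in 5 of 11 genes known to be higher in male liver (45.5%), in 0 of 6 tested genes known to be higher in female liver, in 4 of 14 tested clock genes (28.6%) and in 3820 of the 15578 genes tested (24.5%). Between the WT livers alone, replicate 1 was the higher in 11 of 11 male-biased genes and 0 of 6 female-biased genes. It was the higher in 10 of 14 clock genes and 50.5% of all genes tested. The WT livers thus differed from each other in the direction of the tested sex-biased genes, with small and large differences counted alike. The genes all come from 1 pair of mice and are not independent observations, and which liver was unusual cannot be told from a pair. Between the LXRDKO livers these counts were 5 of 11, 3 of 6 and 8 of 14, against 49.7% of all genes. Among the male-biased genes, Hsd3b5, a steroid-metabolizing enzyme, gave WT values of 9502 and 3816 normalized counts against 5194 and 2984 in LXRDKO. Mup7, a major urinary protein, had 24673 and 2005 in WT and 13400 and 7131 in LXRDKO. Both belong to the 5 of 11 that ran as Elovl3 did in both pairs, and both were picked after their values were seen. Cyp4a12a, an arachidonic acid hydroxylase of male liver, ran the other way in the LXRDKO pair, with 12211 and 9294 in WT and 5662 and 7098 in LXRDKO. It was the one gene of these lists that DESeq2 called, lower in LXRDKO, with a log2 fold change of -0.75. DESeq2 called 2.03% of all genes it tested lower. The part of these genes in the Elovl3 values was not tested.

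Elovl7 (ENSMUSG00000021696, chr13:108214404-108285683 on the plus strand), which acts on saturated and monounsaturated chains, was nearly silent. It gave WT values of 11.4 and 33.1 normalized counts against 34.2 and 26.8 in LXRDKO, from between 10 and 39 reads a liver. The groups overlapped, and the log2 fold change of 0.60 (SE 0.56, 95% confidence interval -0.79 to 2.00, limma adjusted P value of 0.716) became -0.13 without WT replicate 1. Elovl4 (ENSMUSG00000032262, chr9:83778692-83806277 on the minus strand) had 0 reads in both WT livers and 2 in each LXRDKO liver. A count of 0 allows up to 3 reads by counting error alone, so Elovl4 was not detectably different at this depth and no fold is given.

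**Figure D1:**
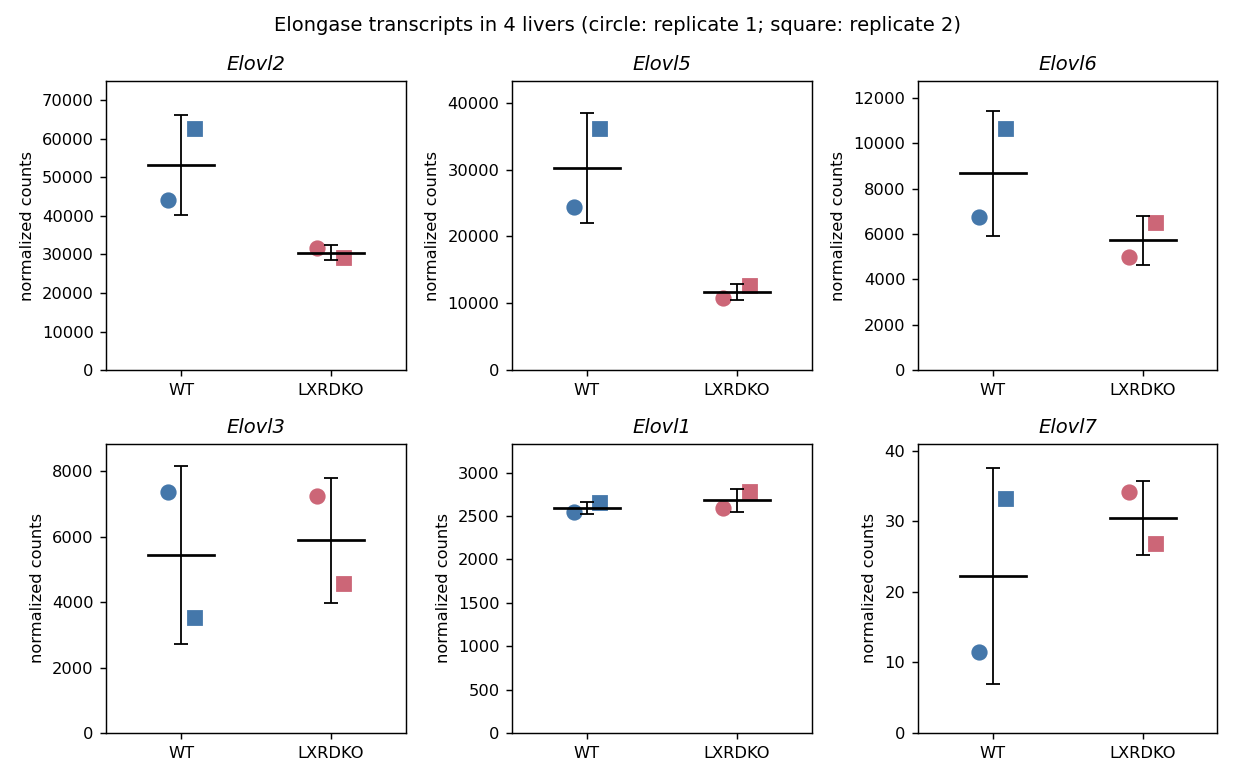
Normalized counts (vertical axis, from 0 in each panel) of each elongase in the 2 WT and 2 LXRDKO livers, with circles for replicate 1 and squares for replicate 2. Both LXRDKO livers lie below both WT livers for Elovl2, Elovl5 and Elovl6, while Elovl1, Elovl3 and Elovl7 overlap.

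Across the family, limma called 0 of the 6 elongases tested at an adjusted P value of 0.05, where it called 0.321% of all genes tested, 0.186% as lower and 0.135% as higher. At an unadjusted P value under 0.05, limma found 2 of 6, Elovl5 and Elovl2, both lower, against 13.3% of all genes in either direction, 7.5% lower and 5.77% higher. DESeq2 called these 2 genes lower and 0 higher, against 3.59% of the genes it tested, 2.03% lower and 1.56% higher. The edgeR test called 0, against 0.315% of all genes, 0.193% lower and 0.122% higher. WT exceeded LXRDKO in every pairing of livers for 3 of 6 elongases, a pattern that 23% of all genes tested show, and LXRDKO exceeded WT in every pairing for 0 of 6, against 21.7%. By their log2 fold change 3 of 6 were below 0, as were 50.9% of all genes. The median log2 fold change over the 6 was -0.26, and that over all genes tested was -0.0046.

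**Figure D2:**
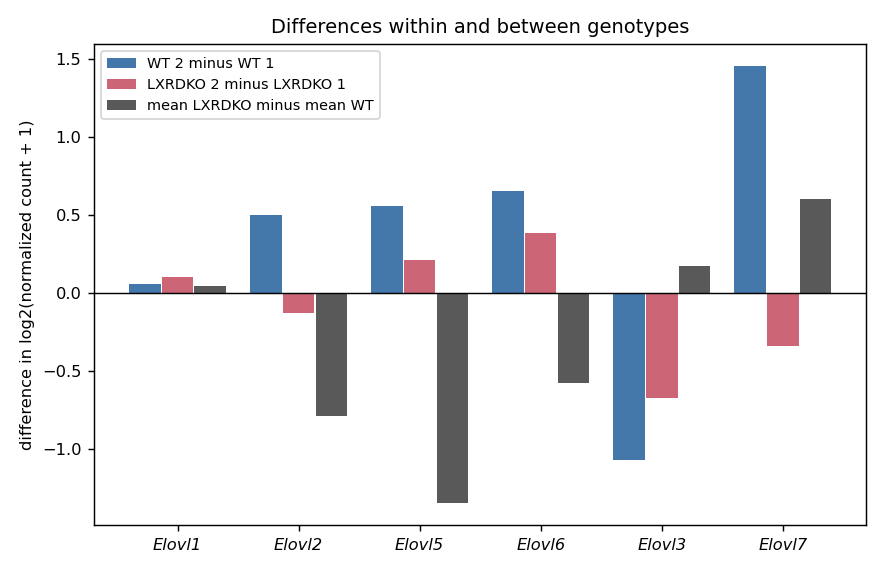
Difference in log2(normalized count + 1) for each elongase tested, for the pair of WT livers, the pair of LXRDKO livers and the genotype means. For Elovl5 and Elovl2 the genotype differences of -1.35 and -0.79 are larger than both within-genotype differences, while for Elovl1, Elovl3, Elovl6 and Elovl7 a within-genotype difference is the largest.

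The spread between WT livers ran the same way for the lower members. WT replicate 2 exceeded WT replicate 1 by 0.50 on the log2 scale for Elovl2, 0.56 for Elovl5 and 0.66 for Elovl6, differences larger than those of 80.6%, 83.4% and 86.9% of all genes tested. The LXRDKO livers were closer, at -0.13, 0.21 and 0.38 for the same genes. For Elovl1 the differences were 0.06 and 0.10. The median absolute difference over all genes was 0.18 for the WT pair and 0.17 for the LXRDKO pair, so the 5 tested elongases other than Elovl1 were among the more variable genes in WT.

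Levels of different genes are compared here only per kb of exon. In WT liver the mean order was Elovl2 with 13427 ± 3265 normalized counts per kb (SD, n = 2), Elovl5 with 8583 ± 2332, Elovl3 with 2754 ± 1383, Elovl6 with 1350 ± 428, Elovl1 with 951 ± 26.7, Elovl7 with 5.55 and Elovl4 at 0. Within each WT liver this order was the same, but Elovl3 and Elovl6 came close in WT replicate 2, at 1776 and 1652 per kb. In LXRDKO liver the mean levels were 7668 ± 477 for Elovl2, 3320 ± 344 for Elovl5, 2983 ± 965 for Elovl3, 984 ± 49.0 for Elovl1 and 892 ± 167 for Elovl6. There Elovl2 stood clear of the rest, Elovl3 exceeded Elovl5 in LXRDKO replicate 1 and not in replicate 2, and Elovl1 and Elovl6 did not differ beyond their spread, with 1018 against 1010 per kb in replicate 2. The places of Elovl1 and Elovl6, and of Elovl3 and Elovl5, depend on the length used. With the longest annotated transcript as the length, Elovl1 exceeded Elovl6 in WT replicate 1 (1403 against 1132 per kb) and not in replicate 2 (1459 against 1786), and it exceeded Elovl6 in both LXRDKO livers (1429 and 1533 against 836 and 1091). Elovl5 then exceeded Elovl3 in LXRDKO replicate 1 as well, narrowly (3896 against 3849).

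The summed elongase level was 23766 and 30373 normalized counts per kb in WT and 16480 and 15231 in LXRDKO, means of 27070 ± 4672 and 15855 ± 883 (SD, n = 2 each) that differ 1.71-fold. In a comparison of 2 livers with 2, the exact permutation test (two-sided) has 0.333 as its smallest P value, and it gave 0.333 for this sum and for each of the ratios given here. In reads without any length scaling, the family held 74675 and 135785 for WT and 60498 and 51743 for LXRDKO. Elovl2 made up 49.3% of the WT sum and 48.4% of the LXRDKO sum. The share of Elovl5 was 29.2% and 33.7% in WT against 18.7% and 23.4% in LXRDKO, lower in both LXRDKO livers. The shares of the remaining members were higher on average in LXRDKO, from 10.8% to 18.7% for Elovl3, 4.92% to 5.66% for Elovl6 and 3.56% to 6.22% for Elovl1. In counts, Elovl6 was lower there. The livers overlapped for Elovl3 (15.7% and 5.85% in WT, 22.2% and 15.1% in LXRDKO) and Elovl6 (4.41% and 5.44% in WT, 4.69% and 6.63% in LXRDKO). They did not overlap for Elovl1 (3.92% and 3.19% in WT, 5.76% and 6.69% in LXRDKO). Elovl5 exceeded Elovl6 by 6.62 and 6.19 times per kb in WT and by 3.98 and 3.53 times in LXRDKO, and exceeded Elovl1 by 7.44 and 10.6 times in WT and by 3.24 and 3.50 times in LXRDKO.

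**Figure D3:**
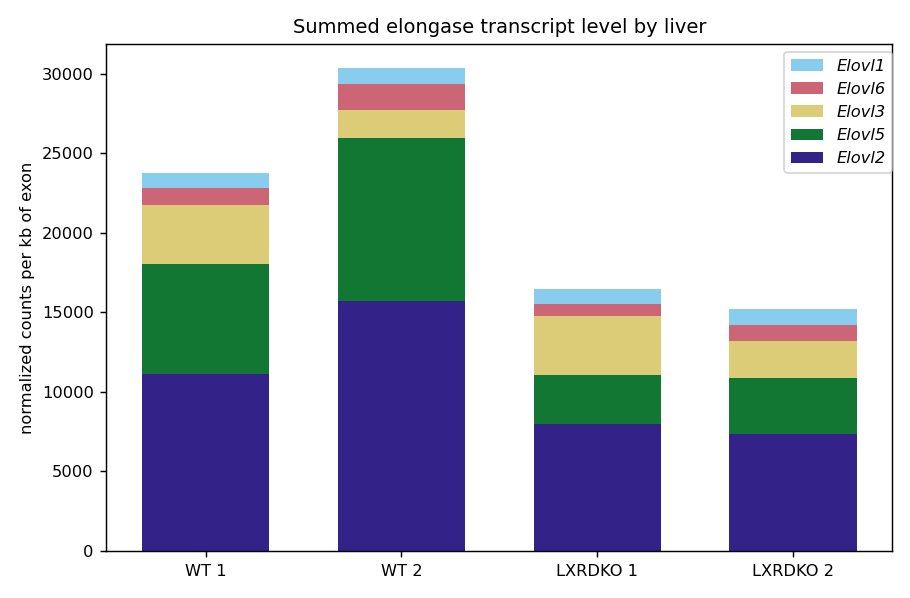
Stacked normalized counts per kb of exon of the elongases in each of the 4 livers. The bars total 23766 and 30373 in WT and 16480 and 15231 in LXRDKO, and the Elovl5 segment takes 29.2% and 33.7% of the WT bars and 18.7% and 23.4% of the LXRDKO bars.

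The enzymes that complete the elongation cycle are shared by all members, and their transcripts were close to WT levels. Of the 7 listed, 6 were tested, 5 had a mean below WT and 1 above, and the log2 fold changes ran from -0.27 to 0.03 around a median of -0.11. Limma called 0 (0.321% of all genes tested), also at an unadjusted P value under 0.05 (13.3% of all genes). DESeq2 and edgeR called 0 as well (3.59% and 0.315% of all genes). Hsd17b12, the ketoacyl reductase, gave WT values of 11276 and 10320 normalized counts against 9386 and 9961 in LXRDKO (log2 fold change -0.16, 95% confidence interval -0.40 to 0.08, limma adjusted P value of 0.56). Its LXRDKO values lay just below WT. Hacd3, the dehydratase with the highest level per kb, had 12584 and 14620 in WT and 9855 and 12929 in LXRDKO, with a log2 fold change of -0.26 and an interval from -0.66 to 0.13. Tecr, the enoyl reductase, had 10047 and 11102 in WT and 9575 and 11024 in LXRDKO, with a log2 fold change of -0.04 and an interval from -0.32 to 0.24. The intervals of Hsd17b12, Hacd3 and Tecr leave out a change as large as the estimate for Elovl2 or Elovl5. That of Hacd4, from -0.792 to 0.653, takes in the Elovl2 estimate of -0.788. Tecrl was not analysed here.

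The desaturases work in alternation with the elongases. Of 8 listed, 6 were tested, with 4 lower and 2 higher means and a median log2 fold change of -0.69. Limma called 0 (0.321% of all genes tested), and 4 passed an unadjusted P value under 0.05, 3 lower and 1 higher (7.5% and 5.77% of all genes). DESeq2 called 2 lower (2.03% of all genes) and edgeR called 0 (0.315% of all genes). Fads2, which opens the polyunsaturated pathway just before ELOVL5, gave WT values of 44564 and 62432 normalized counts against 24349 and 27625 in LXRDKO. The groups did not overlap, and the log2 fold change was -1.02 (SE 0.19), with an adjusted P value of 0.127 by limma and 7.77e-06 by DESeq2. Fads1, the desaturase that acts between ELOVL5 and ELOVL2, had 38618 and 54026 in WT and 29038 and 32577 in LXRDKO, a log2 fold change of -0.57 with an adjusted P value of 0.296 by limma and 0.0529 by DESeq2. Scd1, which desaturates stearate made by ELOVL6 and was the most abundant desaturase per kb in WT, was the other DESeq2 call, with a log2 fold change of -4.15 (95% confidence interval -5.42 to -2.87) and an adjusted P value of 1.72e-05 by DESeq2 and 0.0615 by limma. Fads3 was higher in both LXRDKO livers, with a log2 fold change of 0.87 and a limma adjusted P value of 0.263.

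**Figure D4:**
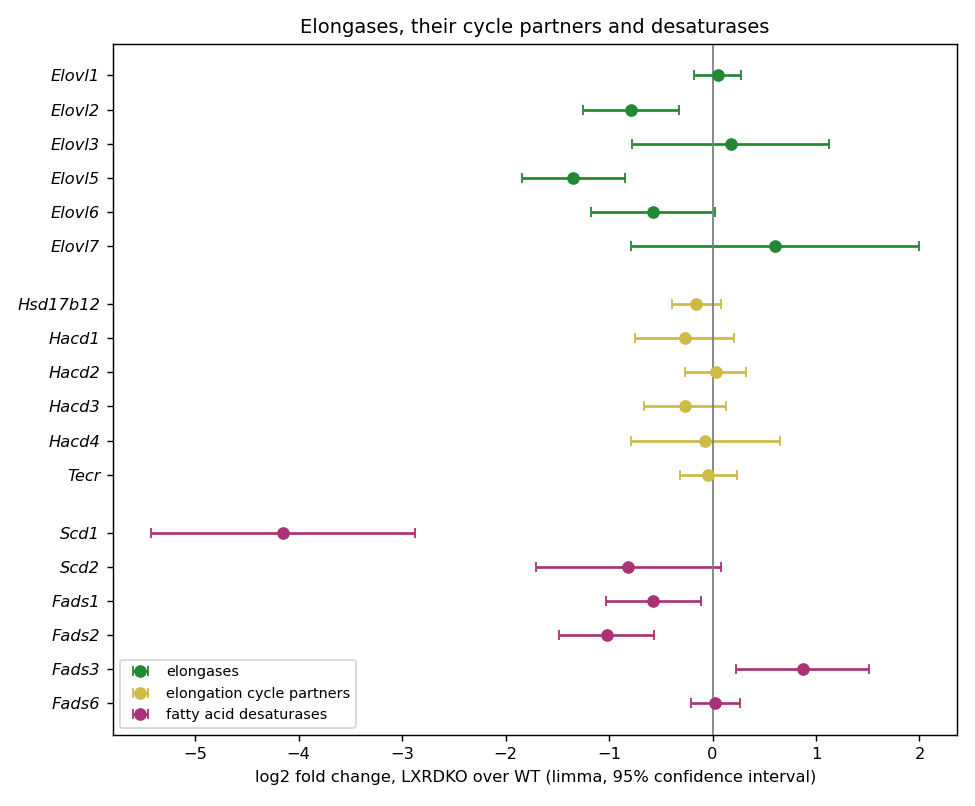
Log2 fold change of LXRDKO over WT (horizontal axis) with the 95% confidence interval from limma for the elongases, their cycle partners and the desaturases. The partners cluster near 0, between -0.27 and 0.03, while Scd1 (-4.15), Elovl5 (-1.35), Fads2 (-1.02), Elovl2 (-0.79) and Fads1 (-0.57) lie to the left, and Fads3 (0.87) to the right, with intervals that do not reach 0.

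Of 12 listed genes of fatty acid synthesis and malonyl-CoA metabolism, 11 had a log2 fold change below 0 (50.9% of all genes tested). The median was -0.63. Not all of these genes supply the elongases. Limma called 1 lower (0.186% of all genes), Acacb, the mitochondrial acetyl-CoA carboxylase, with normalized counts of 12108 and 15991 in WT and 2822 and 3501 in LXRDKO. DESeq2 called 5 lower, Acacb, Fasn, Me1, Acaca and Mid1ip1 (2.03% of all genes), and 7 of the 12 lay below both WT livers (23% of all genes). Elovl6 is the next enzyme after Fasn, and its log2 fold change of -0.57 stood beside -1.79 for Fasn, -0.87 for Acaca, the cytosolic carboxylase that makes malonyl-CoA, and -1.41 for Me1, a source of NADPH.

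The lists of ceramide synthases and of very long chain activation and transport had medians nearer 0. Of the ceramide synthases, which attach very long chains to sphingoid bases, 4 were tested, with 3 lower and 1 higher means and a median of -0.07. Limma called 0 (0.321% of all genes), also at an unadjusted P value under 0.05 (13.3% of all genes). DESeq2 and edgeR called 0 (3.59% and 0.315% of all genes). Cers2, the most abundant, gave WT values of 21390 and 18503 normalized counts against 18951 and 20520 in LXRDKO. Of 9 tested genes for activation and transport of very long chains, 6 had lower and 3 higher means, with a median of -0.10. Limma and edgeR called 0 of them (0.321% and 0.315% of all genes), and 1 lower and 1 higher passed an unadjusted limma P value under 0.05 (7.5% and 5.77% of all genes). DESeq2 called 1 lower (2.03% of all genes), Abcd3, a peroxisomal transporter. Its log2 fold change was -0.64, with adjusted P values of 0.261 by limma and 0.0363 by DESeq2.

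Among 12 listed regulators, limma called 3 lower (0.186% of all genes), the deleted Nr1h3 and Nr1h2 and Srebf1. Srebf1, whose SREBP-1c product is an activator of Elovl6 and other lipogenic genes, gave WT values of 22205 and 24071 normalized counts against 3118 and 5287 in LXRDKO, with a log2 fold change of -2.51 (limma adjusted P value of 0.0407). DESeq2 also called Ppara, the fatty acid sensor of the fasted liver, lower, with a log2 fold change of -0.58 and adjusted P values of 0.214 by limma and 0.0282 by DESeq2. Mlxipl, which encodes the carbohydrate-responsive factor ChREBP, and Srebf2, the sterol-regulated homolog of Srebf1, had log2 fold changes of -0.04 and -0.02, with intervals from -0.35 to 0.28 and from -0.67 to 0.63.

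The genes most like Elovl5 over the 4 livers were taken by the smallest Euclidean distance of centred log2(normalized count + 1). They were Rnf24, Tiam1, Aqp8, Gm765 and E2f8, at distances of 0.0956, 0.146, 0.171, 0.171 and 0.176. Rnf24, the nearest, gave WT values of 1174 and 1662 normalized counts against 475 and 568 in LXRDKO. Like Elovl5, it was higher in replicate 2 of each genotype. The distance rests on 4 livers that share their libraries and the genotype split, and is a description.

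Some elongases overlap other annotated genes. The library kit was stranded, but the strand setting of the counting is not given in the sources used here, so reads in these overlaps may have been counted for either gene. Cdc20, a cell-cycle gene on the strand opposite Elovl1, gave WT values of 33.1 and 66.2 normalized counts against 178 and 91.1 in LXRDKO, against 2540 or more for Elovl1. Gm35986, antisense to Elovl6, had 122 and 134 in WT and 95.9 and 124 in LXRDKO. Pitx3, opposite Elovl3, lay between 2.55 and 10.3. Each of these lay far below the elongase it overlaps, and Elovl2, Elovl5 and Elovl4 overlap no other annotated gene.

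Markers of other liver cell types differed between the genotypes beside these results. Of 10 Kupffer cell markers, limma called 4 lower (0.186% of all genes tested), Clec4f, Cd5l, Marco and Cd163. DESeq2 called 6 lower (2.03% of all genes), adding Timd4 and Vsig4. Csf1r, C1qa and C1qb overlapped between the genotypes. The summed normalized counts of the list were 14531 and 15858 in WT and 9072 and 5330 in LXRDKO. Of 6 endothelial markers, limma called 2 lower (0.186% of all genes), Kdr and Cdh5, while Stab2 and Lyve1 overlapped between the genotypes. The endothelial sums were 10670 and 9591 in WT and 7499 and 5871 in LXRDKO. All 5 cholangiocyte markers tested lay above WT in both LXRDKO livers, where 21.7% of all genes tested do. The cholangiocyte sums were 2078 and 3589 in WT and 4566 and 5427 in LXRDKO. Limma and edgeR called 0 of the 5 (0.321% and 0.315% of all genes), and 3 were higher at an unadjusted limma P value under 0.05 (5.77% of all genes). DESeq2 called Epcam higher (1.56% of all genes). The stellate cell sums were 12307 and 15695 in WT and 17940 and 20818 in LXRDKO. DESeq2 called Dcn and Reln higher (1.56% of all genes). Of the 7 stellate markers, 4 lay above WT in both LXRDKO livers (21.7% of all genes tested) and 3 overlapped between the genotypes. The sums of the lymphocyte list, with 4 of 5 tested markers below both WT livers (23% of all genes tested), were between 108 and 238. Of 6 adipocyte markers, 4 are in the table and 1 was tested. Adipoq and Plin1 lay between 0 and 1.70 normalized counts and Cidea between 1.70 and 5.70, while Cfd had 69.6 and 28.9 in WT and 10.4 and 38.6 in LXRDKO. The part of the other cell types in the elongase values was not tested.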

How the data were processed

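RNA-Seq of 4 livers was analysed, and the ATAC-Seq samples of the same study were not analysed here. Per the labels and methods, stranded KAPA libraries of captured mRNA were read from one end over 50 bp, and the authors aligned the reads to mm10 with STAR 2.6.0c. The tool that counted reads, its strand setting and the annotation release are not given in the sources used here. The deposited signal is a table of counts that the authors normalized with DESeq2. All values (100%) were whole multiples of what 1 read is worth, within a tolerance of 0.001 reads, so reads were recovered.

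The main test, chosen for normalized values, was limma 3.58.1 in R 4.3.3 on log2(normalized count + 1), with trended empirical Bayes moderation, on the 15578 genes whose mean reached 10 normalized counts, adjusted by the Benjamini-Hochberg method at 0.05. Fold changes on this scale understate those of genes with low counts. DESeq2 1.42.0 (567 genes called) and edgeR 4.0.16 quasi-likelihood fits (49 called, limma 50) were run on the recovered reads. All were also run on simulated data with planted changes, as a check of their direction and size. That check set no limit on unchanged genes called, so it cannot decide between these counts. Nothing says whether the mice shared litters or days, and replicate numbers were not used to pair them. P values rest on the spread between 2 mice per genotype and, in each tool, on the spread of other genes. Counting floors (3 reads) cover counting error only.

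Positions and exon lengths came from GENCODE M21 on GRCm38 (24987 identifiers matched, 23 did not), and promoters from RefSeq. The elongases and the gene lists were chosen with earlier results of these data known. The genes named are the elongases, the list members called by any tool or with the highest level, Nr1h3, Nr1h2 and Srebf1, genes that overlap an elongase, and the 5 nearest to Elovl5 in pattern. Fads1, Fads3, Hsd3b5, Mup7, Mlxipl, Srebf2, Hsd17b12, Tecr and Ddx3y were added after their values were seen. The result of 1 list is not reported here. The alternatives were other pseudocounts, filters, scalings and tests, a replicate block, other thresholds, and leaving out each liver.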

Additional observations from a re-analysis of the deposited data

How the results depend on the processing

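Relative to 50 genes called by limma over all genes, 25 were called under a filter at a mean of 50 normalized counts, 1 without the trend, 567 by DESeq2, 2 at a threshold of 0.01 and 138 at 0.10, and between 2 (without LXRDKO replicate 1) and 262 (without WT replicate 1) without 1 liver. Of the elongases limma called 0, DESeq2 called 2, a threshold of 0.10 gave 1, and leaving out 1 liver gave 0 to 2. Of the cycle partners and desaturases limma called 0, DESeq2 called 2, a threshold of 0.10 gave 1, and leaving out 1 liver gave 0 to 3. The differences between replicates 1 and 2 were not correlated between the genotypes (correlation of deviations 0.0031 over 15578 genes). With 1 difference per genotype, this cannot settle whether the replicate numbers pair the mice. With the replicate number as a block, 90 genes were called over all genes, 1 elongase (Elovl5, limma adjusted P value of 0.0308) and 1 gene of the other group, and Elovl2 remained at 0.186. The median log2 fold change of the elongases, -0.26, was -0.57 under the filter at 50, which drops Elovl7, and lay between -0.51 and -0.27 without 1 liver. With the longest transcript as gene length, the Elovl2 share in WT was 45.2% in place of 49.3%. That of Elovl1 was 4.75% in place of 3.56% in WT and 8.38% in place of 6.22% in LXRDKO. That of Elovl6 was 4.72% in WT and 5.47% in LXRDKO. In WT, Elovl1 then lay above Elovl6 in replicate 1 and below it in replicate 2. Leaving out 1 liver turned the direction for Elovl1 (-0.0020 without LXRDKO replicate 2, range up to 0.10), Elovl3 (-0.36 without WT replicate 2 and -0.16 without LXRDKO replicate 1, range up to 0.71) and Elovl7 (-0.13 without WT replicate 1, range up to 1.33). The cause was not tested, apart from the filter. Depth limits Elovl4 and Elovl7, with at most 39 reads a liver.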
